A study of Mus musculus with 8 samples.

Results

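Messenger RNA levels of 32 genes that make ribosomes, or that are known to drive their making, were followed in mouse bone mesenchymal stem cells (MSCs, stromal cells that can form bone, fat and cartilage) cultured at low or high oxygen. The 32 genes were taken by symbol from a count table of 53465 Ensembl gene identifiers. They are the transcription factor Myc, 4 genes of the RNA polymerase I machinery, 3 each of the box C/D and box H/ACA small nucleolar ribonucleoprotein (snoRNP) cores, 6 of small subunit assembly, 3 of the PeBoW complex, 7 of large subunit assembly and 5 abundant nucleolar proteins. All 32 passed the filter on low counts, as did 14369 genes in all.

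RNA-seq was performed on 4 hypoxia-cultured samples (2% O2) and 4 normoxia-cultured samples (21% O2), numbered from 1 to 4 in each group. Per the labels, the bone-marrow MSCs came from mice of 3 to 5 months, were grown in α-MEM and were sorted on day 12. The study's methods add that the mice were wild-type C57BL/6N males, that the gate was CD45-/Ter-119-/Sca-1+/CD140a+, and that bone cultures were kept in hypoxia until the sort, after which the sorted cells were divided between the oxygen levels. On that account all 8 samples share the hypoxic outgrowth, and the normoxia samples were at high oxygen for the set culture time after the sort. From the labels alone that time is uncertain, since they can also be read as cultures kept at either oxygen level from the start. No freshly isolated, uncultured cells were compared. Whether a sample came from 1 animal or from several is not stated. In bulk RNA, fewer cells that express a gene and less of its RNA per cell cannot be told apart.

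Total counts ranged from 12898291 to 25132141 per sample, with hypoxia 1 the deepest, and a single one of the 32 genes had between 140 and 13714 counts in a sample. All 8 MSC markers were measured. Of 11 macrophage and blood markers, 7 were measured, and they summed to 474 to 934 CPM (counts scaled to library size) in hypoxia and 587 to 1090 CPM in normoxia. They did not move one way. Lyz2 (lysozyme of macrophages), the most counted, was higher in normoxia by 0.56 on the log2 scale (SE 0.168, limma-trend, adjusted p = 0.022), whereas the changes of Csf1r (-0.59), Itgam (-0.46), Cd68 (-0.28), Cd14 (-0.26) and Adgre1 (-0.11) were negative and did not pass. With the number as a block 1 was higher (background 23.3% of all tested genes) and 3 were lower (background 22.7%). The haemoglobin genes Hba-a1 and Hbb-bs, which mark erythroid cells, were at 0 counts, and endothelial markers summed to at most 2.65 CPM. The part of the macrophage signal in the results below was not tested. As a check on the labels, 7 of 8 hypoxia response genes were lower in normoxia (87.5%, against a background of 16.5% of all tested genes). Car9, a carbonic anhydrase of low oxygen, was lower by 2.34 on the log2 scale (log2 change -2.34, SE 0.155, limma-trend, adjusted p = 9.81e-06).

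Ribosome biogenesis starts in the nucleolus, where RNA polymerase I transcribes the precursor of the ribosomal RNAs. SnoRNPs then modify this precursor, box C/D particles by methylation and box H/ACA particles by pseudouridylation, while assembly factors fold, cut and package it into the small and large subunits. Myc binds DNA with its partner Max at the letters CACGTG, called an E-box, and is known in many cell types as an activator of these genes.

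To show what the start sites of these genes look like, promoter windows of 300 bases (250 before to 50 after the start) were taken from RefSeq on GRCm38.p6, and 26 of the 32 genes matched. CACGTG, which reads the same on both strands, occurred in 4 of the 26 (15.4%), in 11.6% of tested genes and in 8.09% of all genes of the table. The 4 windows are printed 5′ to 3′ on the strand of the gene because they carry this letter string, which is in capitals. They belong to the rRNA methyltransferase gene Nop2 (chr6:125131633-125131932, plus strand), the small subunit factors Utp20 (chr10:88826765-88827064, minus strand) and Wdr43 (chr17:71615965-71616264, plus strand), and the PeBoW member Pes1 (chr11:3963725-3964024, plus strand).
Nop2: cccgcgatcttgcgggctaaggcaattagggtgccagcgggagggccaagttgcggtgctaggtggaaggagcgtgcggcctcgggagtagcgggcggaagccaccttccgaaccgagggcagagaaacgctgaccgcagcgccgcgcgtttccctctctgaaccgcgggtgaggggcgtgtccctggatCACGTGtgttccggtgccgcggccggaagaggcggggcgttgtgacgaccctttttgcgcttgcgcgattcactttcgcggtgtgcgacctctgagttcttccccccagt
Utp20: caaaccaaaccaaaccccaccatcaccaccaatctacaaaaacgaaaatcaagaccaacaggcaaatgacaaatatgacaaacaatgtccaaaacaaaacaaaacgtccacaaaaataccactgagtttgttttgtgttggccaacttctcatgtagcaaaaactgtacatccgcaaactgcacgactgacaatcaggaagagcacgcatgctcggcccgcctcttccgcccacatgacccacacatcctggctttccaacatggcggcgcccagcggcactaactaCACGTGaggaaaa
Pes1: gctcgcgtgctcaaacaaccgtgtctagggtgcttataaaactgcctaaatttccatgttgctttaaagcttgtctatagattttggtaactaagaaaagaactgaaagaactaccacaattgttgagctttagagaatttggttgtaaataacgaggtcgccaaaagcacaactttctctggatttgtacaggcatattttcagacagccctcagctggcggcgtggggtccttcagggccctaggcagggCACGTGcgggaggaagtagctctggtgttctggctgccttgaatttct
Wdr43: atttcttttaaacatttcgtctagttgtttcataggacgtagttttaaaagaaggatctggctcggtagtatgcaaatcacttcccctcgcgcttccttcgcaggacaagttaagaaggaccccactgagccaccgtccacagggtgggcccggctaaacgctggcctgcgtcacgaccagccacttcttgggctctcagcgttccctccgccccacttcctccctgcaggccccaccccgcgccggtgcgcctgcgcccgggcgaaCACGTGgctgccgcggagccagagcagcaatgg

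In Nop2 the capitals begin 60 bases before the start, and in Pes1, Wdr43 and Utp20 they begin at bases 3, 18 and 38 of the transcribed part. With the 250 bases before the start alone, Nop2 is the 1 gene left (3.85% of the 26, against 9.84% of tested genes and 6.86% of all genes). The windows also differ in base composition, with a GC content of 66.0% for Nop2, 59.7% for Wdr43, 47.0% for Utp20 and 46.0% for Pes1. Of the other strings searched on both strands, CACGCG was found in 10 of the 26 windows (38.5%, against 19.8% of tested genes), CGGAAG in 13 (50%, against 34.2%) and TATAAA in 2 (7.69%, against 8.85%). A string that is found is a description of the window and says nothing of binding.

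It was then asked how the 32 genes differed between oxygen levels. Log2 changes are normoxia minus hypoxia throughout. With limma-trend and a threshold of 0.05 on the p-value adjusted over all tested genes, 16 of the 32 genes (50%) were higher in normoxia, against a background of 18.0% of all tested genes, and 1 (Polr1c) was lower, against 16.5%, so that 17 changed where 34.6% of all tested genes did. The other 15 did not pass the test. The change was positive for 28 of the 32, with a median of 0.28 and quartiles of 0.14 and 0.48, while the median of all tested genes was 0.0049 with quartiles of -0.23 and 0.24. The rises were moderate in size, from 0.29 for Utp20 to 0.84 for Gnl3, which is a ratio of 1.23 to 1.78.

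**Figure D1:**
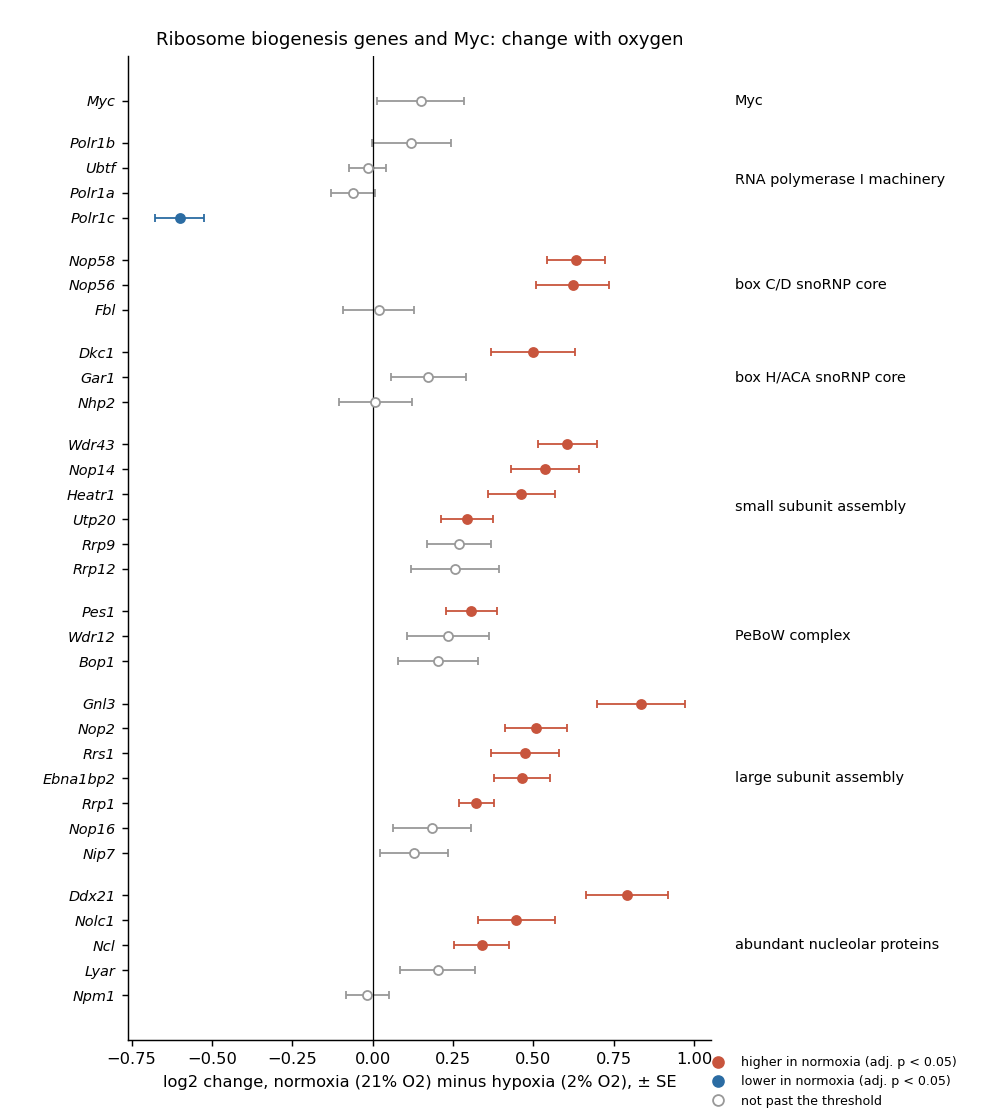
Log2 change (normoxia minus hypoxia, horizontal axis) of each of the 32 genes, grouped by role (vertical axis), as points with bars of 1 SE from limma-trend over 4 samples per group. Red points passed the adjusted threshold as higher, the blue point (Polr1c) as lower, and open points did not pass; the red points run from 0.29 to 0.84 and are found in every role class except Myc and the RNA polymerase I machinery.

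The lowest normoxia sample stood above the highest hypoxia sample for 15 of the 32 genes (background 17.1%), and the reverse held for 1 (background 15.5%). Within the numbered pairs, 20 genes were higher in normoxia in 4 of 4 pairs (background 27.7%), and Polr1a and Polr1c were lower in 4 of 4 (background 26.8%). With the replicate number as a block, 20 genes were higher (background 23.3%), the 4 added being Rrp9, Rrp12, Bop1 and Wdr12, and 1 was lower (background 22.7%). After a correction that removes from each sample the trend of levels with the GC content and length of transcripts, 16 were higher (background 15.5%) and 2 lower (background 14.5%), with 13 of the 16 shared with the uncorrected fit. That correction dropped Dkc1, Utp20 and Ncl and added Gar1, Rrp9 and Bop1. In the blocked fit on corrected values 23 were higher (background 21.8%) and 2 lower (background 21.5%). The median GC content of the transcripts was 50.5% for the 32 genes and 49.7% for all tested genes.

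The mean log2 CPM of the 32 genes was 5.35, 5.02, 5.12 and 5.04 in hypoxia 1 to 4 and 5.56, 5.36, 5.44 and 5.35 in normoxia 1 to 4. Every normoxia sample stood above its numbered hypoxia partner, by 0.21, 0.33, 0.32 and 0.32, but hypoxia 1 reached the level of normoxia 2 and 4. Together the 32 genes took 0.180% to 0.210% of all raw counts in hypoxia and 0.226% to 0.256% in normoxia. These shares leave out the TMM factors that scale the CPM values. The factors were lower in every hypoxia sample than in any normoxia sample, so the shares overstate the difference in scaled levels. Npm1 and Ncl had the most counts of the 32 genes and weigh most in the shares. Proliferation genes, like the 32 genes, were highest in the samples numbered 1 within each group. Their mean log2 CPM was 5.77, 5.01, 5.38 and 5.22 in hypoxia 1 to 4 and 5.72, 5.15, 5.40 and 5.37 in normoxia 1 to 4, and the samples numbered 2 were lowest in each group. Between the groups, 1 of 14 proliferation genes passed the test as higher (7.14%, background 18.0%) and 0 as lower (background 16.5%). The 1 was Rrm2, a subunit of ribonucleotide reductase (higher by 0.63, SE 0.215, limma-trend, adjusted p = 0.0395). The summed level of the 14 genes was 493 to 842 CPM in hypoxia and 573 to 874 CPM in normoxia. The part of proliferation in the levels of the 32 genes was not tested.

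**Figure D2:**
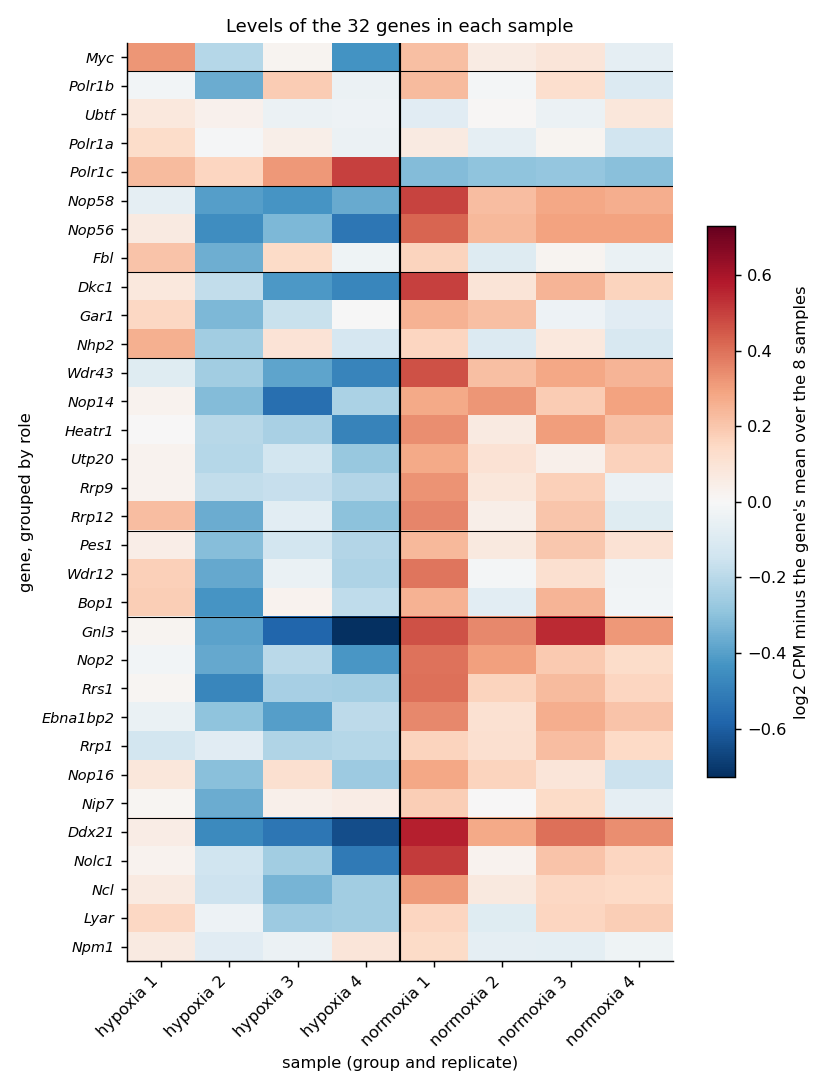
Log2 CPM of each of the 32 genes (rows, grouped by role) in each sample (columns), minus the gene's mean over the 8 samples, with red above and blue below that mean. Most rows turn from blue to red between hypoxia 2 to 4 and the normoxia samples, hypoxia 1 lies between them (mean of the 32 genes 5.35, against 5.02 to 5.12 in the other hypoxia samples), and the Polr1c row runs the other way.

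Myc (ENSMUSG00000022346, mm10 chromosome 15, 61985391 to 61990374) did not pass the test. Its level was 42.5, 29.4, 34.5 and 25.04 CPM in hypoxia 1 to 4 and 39.7, 35.4, 36.1 and 32.4 CPM in normoxia 1 to 4. The groups overlapped, since hypoxia 1 was the highest of the 8 samples and hypoxia 4 the lowest. The log2 change was 0.15 (SE 0.135, 95% interval -0.14 to 0.44, limma-trend, adjusted p = 0.425), so a rise of up to 0.44 is within the interval. Nor did it pass when samples were blocked by number (adjusted p = 0.117), whereas in a blocked fit on values corrected for GC and length it did, with a log2 change of 0.24 (limma-trend, adjusted p = 0.00734). In 3 of 4 pairs Myc was higher in normoxia. Its log2 change was 0.28 without hypoxia 1 (limma-trend, adjusted p = 0.0542) and 0.028 without hypoxia 4 (limma-trend, adjusted p = 0.884).

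Among other genes of the Myc network, 1 of 11 tested was higher (9.09%, background 18.0%) and 3 were lower (27.3%, background 16.5%), so 7 did not pass. Mga, a partner of Max that represses its targets, had 37.2, 42.2, 35.1 and 30.5 CPM in hypoxia and 47.7, 53.8, 49.5 and 60.3 CPM in normoxia, with no overlap (log2 change 0.54, SE 0.102, limma-trend, adjusted p = 0.00174). Mlxip, which pairs with the Max-like protein Mlx, had 51.7, 59.5, 60.6 and 59.1 CPM in hypoxia and 36.7, 39.7, 43.6 and 44.4 CPM in normoxia (log2 change -0.49, SE 0.0791, limma-trend, adjusted p = 0.000739). The Max-binding repressors Mnt and Mxi1 were lower as well, with log2 changes of -0.37 and -0.31. Max itself had a log2 change of 0.12, which did not pass (limma-trend, adjusted p = 0.175), and Mycn had 3 counts over all samples and was not tested.

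The RNA polymerase I machinery was the 1 class with a fall. Polr1c (ENSMUSG00000067148, chromosome 17, 46243920 to 46248054) encodes a subunit that RNA polymerase I shares with RNA polymerase III. It had 46.5, 44.1, 49.3 and 56.0 CPM in hypoxia 1 to 4 and 31.8, 32.2, 32.5 and 31.95 CPM in normoxia 1 to 4. The normoxia samples lay within 1 CPM of each other and all lay below the lowest hypoxia sample. The log2 change was -0.60 (SE 0.077, limma-trend, adjusted p = 0.000206), a ratio of 0.660. It was also the most expressed of this class per length, at 30.9 CPM per kb of its longest annotated transcript.

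The largest subunit gene Polr1a and the second largest, Polr1b, had log2 changes of -0.06 and 0.12, and Ubtf, the upstream binding factor that keeps ribosomal DNA open, had -0.015. None of these 3 passed. Polr1a had 51.2 to 57.8 CPM in hypoxia and 47.9 to 55.1 CPM in normoxia, and was lower in normoxia in 4 of 4 pairs by 0.025 to 0.096. Of 11 further RNA polymerase I genes, 6 were higher (54.5%, background 18.0%) and 1 lower (9.09%, background 16.5%). Among those with a mean log2 CPM of at least 3, the largest rises were Ttf1, the terminator of ribosomal DNA transcription (0.73, SE 0.118), the polymerase subunit gene Cd3eap (0.44, SE 0.0925) and Taf1d of the promoter selectivity factor (0.41, SE 0.140). Below that level Taf1a, of the same selectivity factor, was higher by 0.86 and the subunit gene Polr1e by 0.43. Znrd1, a small subunit of the enzyme, was lower (-0.35, SE 0.110). The 6 rises were 3 without hypoxia 3, hypoxia 4, normoxia 1, normoxia 2 or normoxia 3, each left out in turn. In those fits the background of higher genes was also lower, at 13.8% to 14.3%.

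The box C/D core held a pair of the largest rises. Nop58 (ENSMUSG00000026020, chromosome 1, 59684971 to 59719044) had 49.7, 39.2, 38.6 and 40.2 CPM in hypoxia 1 to 4 and 73.1, 60.9, 63.2 and 62.6 CPM in normoxia 1 to 4. The groups were clear of each other, and hypoxia 1 stood above its group. The log2 change was 0.63 (SE 0.0903, limma-trend, adjusted p = 0.000365). Nop56 (ENSMUSG00000027405, chromosome 2, 130274430 to 130279313), its partner in the core, had 38.915, 27.0, 29.5 and 25.7 CPM in hypoxia and 49.9, 43.8, 45.5 and 45.5 CPM in normoxia. These did not overlap either (log2 change 0.62, SE 0.113, limma-trend, adjusted p = 0.00145).

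Fbl (fibrillarin), the methyltransferase of the same particle, did not follow this pattern. It had 51.5, 34.8, 49.2 and 43.5 CPM in hypoxia and 49.8, 41.7, 45.3 and 43.0 CPM in normoxia, and hypoxia 2 was the lowest sample. The log2 change was 0.019 (SE 0.111, 95% interval -0.22 to 0.26, limma-trend, adjusted p = 0.916), and its sign turned in 4 of the alternatives. In the box H/ACA core, Dkc1 (dyskerin, the pseudouridine synthase) was higher in normoxia, at 11.8 to 17.4 CPM in hypoxia and 17.6 to 23.3 CPM in normoxia (log2 change 0.50, SE 0.132, limma-trend, adjusted p = 0.0117). With the GC and length correction Dkc1 no longer passed (0.33, limma-trend, adjusted p = 0.063).

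Nhp2, which binds the RNA of the box H/ACA particle, was the most expressed of its class per length. It had 33.6, 23.4, 30.1 and 25.7 CPM in hypoxia and 31.2, 26.1, 29.5 and 25.9 CPM in normoxia. The groups overlapped fully, with a log2 change of 0.0087 (SE 0.112, limma-trend, adjusted p = 0.962) whose sign turned in several alternatives. In the blocked fit on corrected values it passed as higher (0.19, limma-trend, adjusted p = 0.0298). Gar1, the third member of the core given here, had a log2 change of 0.17 that did not pass, but passed with the GC and length correction (0.40, limma-trend, adjusted p = 0.0199). Of 10 further snoRNP genes, 2 were higher (20%, background 18.0%) and 1 lower (10%, background 16.5%), shares near those of all genes. The box C/D assembly factors Nufip1 (0.70, SE 0.135) and Znhit6 (0.37, SE 0.119) were higher, and Pih1d1, a subunit of the R2TP chaperone complex, was lower (-0.38, SE 0.0631).

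**Figure D3:**
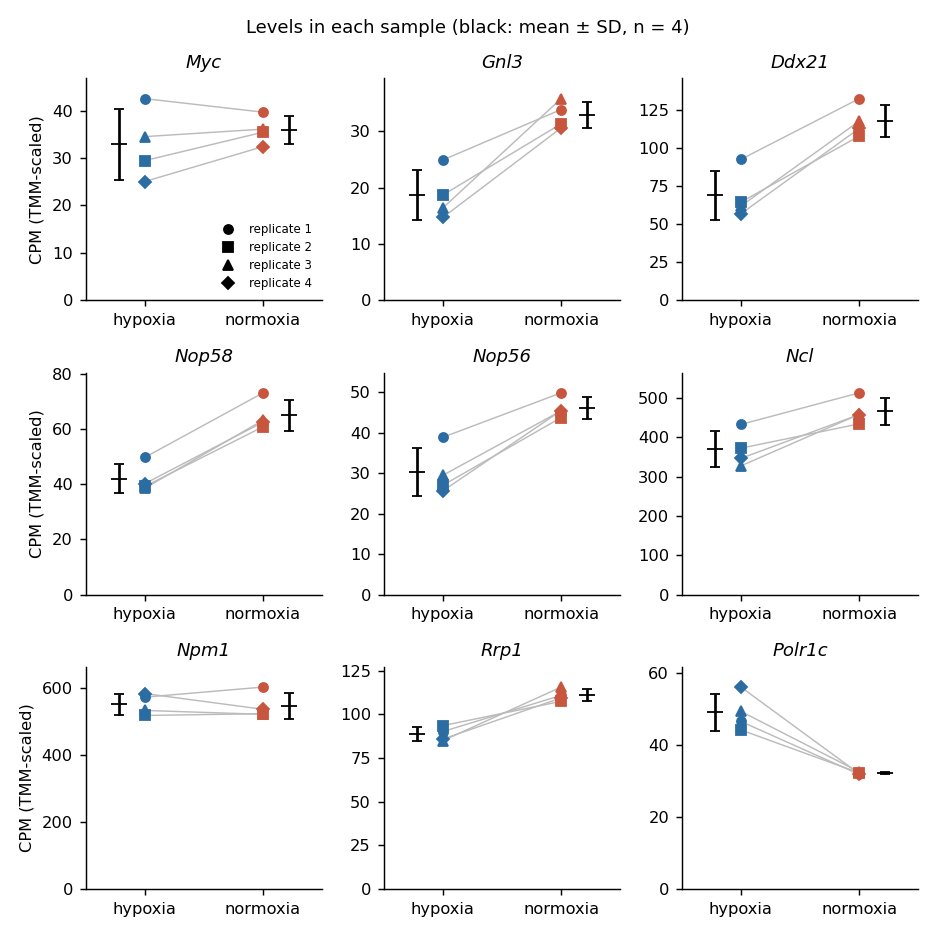
CPM in each sample (vertical axis, from 0) of 9 of the genes, with hypoxia in blue and normoxia in red, lines joining samples of the same number, and black bars for the mean ± SD of 4 samples. Gnl3, Ddx21, Nop58, Nop56, Ncl and Rrp1 are higher and Polr1c is lower in every normoxia sample than in any hypoxia sample, whereas Myc and Npm1 overlap.

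In small subunit assembly, 4 of 6 genes were higher (66.7%, background 18.0%). Wdr43, an early factor that couples transcription to assembly, had 30.8, 27.4, 25.1 and 23.4 CPM in hypoxia and 45.3, 38.2, 40.0 and 38.89 CPM in normoxia (log2 change 0.61, SE 0.0928, limma-trend, adjusted p = 0.000536). Nop14, needed for the small subunit precursor to mature, was the most expressed of the class per length and had 28.6, 22.6, 19.2 and 24.0 CPM in hypoxia and 34.2, 35.2, 32.04 and 34.5 CPM in normoxia (log2 change 0.54, SE 0.106, limma-trend, adjusted p = 0.00235). For both genes, every normoxia sample stood above every hypoxia sample.

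Heatr1, a scaffold of the same early complex as Wdr43, and Utp20, another large scaffold, were higher by 0.46 (SE 0.105) and 0.29 (SE 0.0799). Utp20 no longer passed without normoxia 1 (0.24, limma-trend, adjusted p = 0.051) or with the GC and length correction (0.22, adjusted p = 0.054). Rrp9, which sits on the snoRNA at the heart of the early precursor, had a log2 change of 0.27 (SE 0.0999) that lay at the edge of the threshold (limma-trend, adjusted p = 0.0542), and the block gave an adjusted p of 0.0134. Without hypoxia 1 or normoxia 4 Rrp9 passed, with 0.32 in each case (adjusted p = 0.0268 and 0.0412). Rrp12, a factor for export of the subunit, had 0.26 (SE 0.136, limma-trend, adjusted p = 0.166), and passed with the block (adjusted p = 0.0173) and without hypoxia 1 (0.37, adjusted p = 0.0263). All 6 genes were higher in normoxia in 4 of 4 pairs.

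The wider list of small subunit factors gave a like count. Of 53 tested, 26 were higher (49.1%, background 18.0%) and 2 lower (3.77%, background 16.5%), with a median log2 change of 0.24. Without hypoxia 3, 17 were higher, and the background was also lower, at 13.8%. Mphosph10, a component of the early precursor, had the largest change of the wider lists, at 9.3, 7.1, 5.2 and 6.4 CPM in hypoxia and 19.4, 17.5, 17.5 and 13.8 CPM in normoxia (log2 change 1.28, SE 0.166, limma-trend, adjusted p = 0.000217). Esf1 and Dnttip2, further nucleolar factors, were higher by 1.00 and 0.78. Emg1, an RNA methyltransferase, and Nol6 were lower, with log2 changes of -0.36 and -0.26.

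The PeBoW complex acts on the large subunit precursor. Pes1 (chromosome 11, 3963975 to 3980004), its most expressed member per length, had 61.0, 47.7, 53.7 and 50.9 CPM in hypoxia and 69.5, 62.1, 67.8 and 63.7 CPM in normoxia. The groups did not overlap, by a margin of about 1 CPM between hypoxia 1 and normoxia 2 (log2 change 0.31, SE 0.0789, limma-trend, adjusted p = 0.0102). Bop1 and Wdr12, its partners, had log2 changes of 0.20 and 0.24 that did not pass (limma-trend, adjusted p = 0.23 and 0.176). Both passed once the block was added (adjusted p = 0.015 and 0.0213), and each was higher in normoxia in 4 of 4 pairs. Without hypoxia 1 Wdr12 passed too (0.33, adjusted p = 0.0427), but the GC and length correction took it to 0.048 (limma-trend, adjusted p = 0.826; 0.67 when blocked as well).

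Large subunit assembly held the single largest rise. Gnl3 (nucleostemin, a nucleolar GTPase abundant in stem and dividing cells; ENSMUSG00000042354, chromosome 14, 31012433 to 31019152) had 24.9, 18.7, 16.4 and 14.7 CPM in hypoxia 1 to 4 and 33.9, 31.3, 35.8 and 30.6 CPM in normoxia 1 to 4. The lowest normoxia sample stood above the highest hypoxia sample. The log2 change was 0.84 (SE 0.136, limma-trend, adjusted p = 0.000767), and the pairs gave 0.44, 0.74, 1.12 and 1.05. Sample 1 thus had the smallest difference of the 4.

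Rrp1, an early large subunit factor, was the most expressed of the class per length and among the most even. It had 90.1, 93.5, 84.9 and 85.8 CPM in hypoxia and 110.8, 107.4, 115.5 and 109.4 CPM in normoxia, with no overlap (log2 change 0.32, SE 0.0556, limma-trend, adjusted p = 0.00105). Nop2, the methyltransferase with the E-box before its start, was higher by 0.51 (SE 0.0954). Rrs1, which brings the particle of the smallest ribosomal RNA into the precursor, and Ebna1bp2, a nucleolar scaffold, were each higher by 0.47 (SE 0.105 and 0.0871). Nop16 and Nip7 had log2 changes of 0.18 and 0.13 that did not pass, though Nop16 did in the blocked fit on corrected values (0.24, limma-trend, adjusted p = 0.012). In the wider list of large subunit factors, 26 of 47 tested genes were higher (55.3%, background 18.0%) and 2 lower (4.26%, background 16.5%), with a median of 0.31. Nol8 (0.86), Noc3l (0.81) and Rsl1d1 (0.68) were the largest rises at a mean log2 CPM of at least 3, Mak16, just below it at 2.95, was higher by 0.92, and Pelp1 (-0.29) and Nop53 (-0.19) were the falls.

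Among abundant nucleolar proteins, Ddx21 (an RNA helicase of the nucleolus; ENSMUSG00000020075, chromosome 10, 62580251 to 62602281) changed most. It had 92.7, 64.6, 62.0 and 56.9 CPM in hypoxia 1 to 4 and 132.6, 108.0, 117.8 and 113.0 CPM in normoxia 1 to 4. Hypoxia 1 was far above its group but still below every normoxia sample. The log2 change was 0.79 (SE 0.127, limma-trend, adjusted p = 0.000704), with 0.52, 0.74, 0.92 and 0.99 in the pairs.

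Ncl (nucleolin), a chaperone of the precursor RNA, had 432, 372, 327 and 346 CPM in hypoxia and 513, 434, 458 and 458 CPM in normoxia. Its highest hypoxia sample lay less than 2 CPM below its lowest normoxia sample (log2 change 0.34, SE 0.0851, limma-trend, adjusted p = 0.00904). It did not pass with the GC and length correction (0.17, adjusted p = 0.124). Nolc1, which binds snoRNPs, was higher by 0.45 (SE 0.121, limma-trend, adjusted p = 0.0132) although the groups overlapped narrowly, at 29.7 to 43.4 CPM in hypoxia and 43.4 to 60.7 CPM in normoxia.

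Npm1 (nucleophosmin; ENSMUSG00000057113, chromosome 11, 33152287 to 33163206), a histone and ribosome chaperone, was by far the most expressed of the 32 genes, at 336 CPM per kb against 50.9 for Ncl, the next. It had 573, 518, 534 and 584 CPM in hypoxia and 603, 524, 522 and 537 CPM in normoxia. The groups overlapped, with a log2 change of -0.016 (SE 0.0664, 95% interval -0.16 to 0.13, limma-trend, adjusted p = 0.879). With the GC and length correction it was lower (-0.16, limma-trend, adjusted p = 0.0332). Lyar, a zinc finger protein of the nucleolus, had a log2 change of 0.20 that did not pass.

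Per length, the levels of the other genes lay between 2.01 CPM per kb for Wdr12 and 50.2 for Rrp1, with Myc at 14.7. The longest annotated transcripts of Wdr12, Nop58 and Ncl are 10012, 9507 and 8202 bases, so their levels per length are too low if shorter forms are the ones present. How this bears on their values after the length correction was not tested. Some genes share sequence with others. Npm1 has processed pseudogenes, of which Gm14681 and Gm9118 had 423 and 83 counts against 64345 for Npm1, and stretches of Wdr12, Nip7, Polr1b, Nop58 and Nop56 recur elsewhere. Rrp9 overlaps Parp3 on the opposite strand over 987 bases, Heatr1 overlaps Lgals8 over 875, Wdr12 overlaps Carf over 399, and Bop1 holds the whole of Scx (2007 bases). Whether counting used strand is not stated, so these values are uncertain to that extent.

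**Figure D4:**
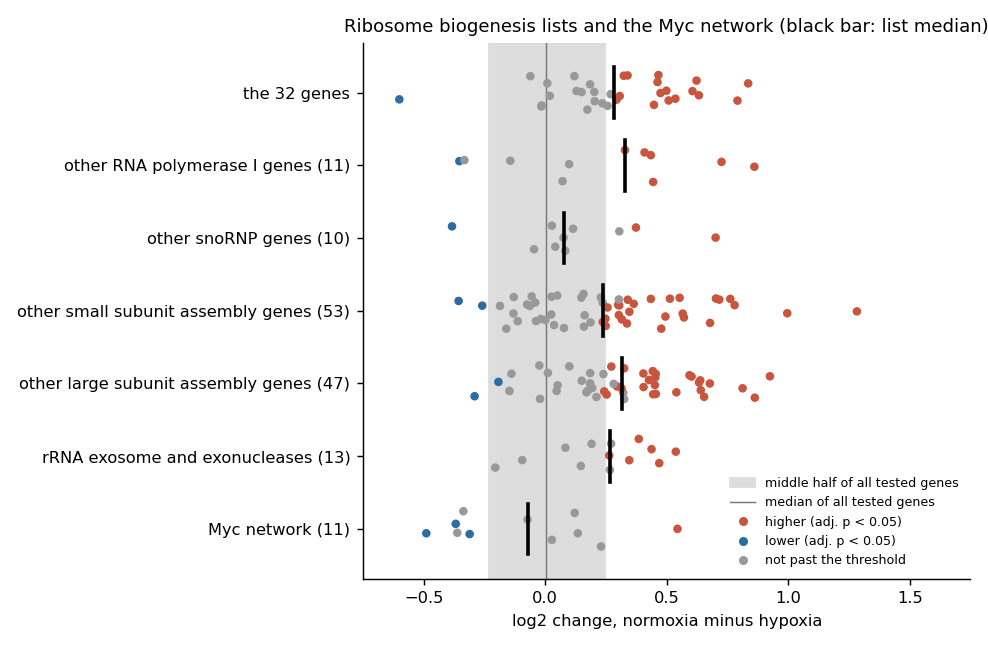
Log2 change (normoxia minus hypoxia, horizontal axis) of every tested gene of the 32 and of 6 wider lists (vertical axis), with red for higher, blue for lower and grey for not past the threshold, a black bar at each list's median and a grey band for the quartiles of all tested genes (-0.23 to 0.24). The median of the 32 genes (0.28) lies above the band, as do those of other RNA polymerase I genes (0.33), other large subunit factors (0.31) and the exosome list (0.27), while that of the Myc network is -0.07. After the GC and length correction the RNA polymerase I and exosome medians are 0.097 and 0.16.

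Over all wider lists of ribosome processing without the 32 genes, 66 of 134 tested genes were higher (49.3%, background 18.0%) and 6 were lower (4.48%, background 16.5%), with a median log2 change of 0.26. After the GC and length correction these counts were 58 (background 15.5%) and 4 (background 14.5%), with a median of 0.20. The correction moved the median of other RNA polymerase I genes from 0.33 to 0.097 (4 higher), of the exosome list from 0.27 to 0.16 (4 higher) and of other small subunit factors from 0.24 to 0.14 (21 higher). Of the genes named above, Taf1d, Znrd1, Pih1d1, Nol6, Pelp1, Mnt and Rrm2 did not pass with it. The exosome and exonucleases, which trim and degrade precursor RNA, gave 6 higher of 13 (46.2%, background 18.0%) and 0 lower (background 16.5%) by limma-trend. At an unadjusted p under 0.05 were 7 of the 13, and 6375 of all 14369 tested genes. Those higher included the nucleases Dis3 (0.54) and Xrn2 (0.47) and the exosome cofactor Mphosph6 (0.44).

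Messenger RNAs for the proteins of the finished ribosome ran the other way. Of 76 tested genes of cytosolic ribosomal proteins, 0 were higher (background 18.0%) and 65 were lower (85.5%, background 16.5%) by limma-trend. The median log2 change was -0.43. An unadjusted p under 0.05 was found for 69 of the 76, and for 6375 of all 14369 tested genes. After the GC and length correction 1 was higher (background 15.5%) and 59 were lower (background 14.5%), with a median of -0.36. The replicate block gave 1 higher (background 23.3%) and 69 lower (background 22.7%). Their mean log2 CPM was 9.11, 8.96, 9.16 and 9.27 in hypoxia 1 to 4 and 8.79, 8.68, 8.69 and 8.69 in normoxia 1 to 4, so each pair fell, by 0.33, 0.28, 0.47 and 0.58, where the 32 genes differed by 0.21 to 0.33 in the opposite direction. These genes have many pseudogenes, and how reads of near-identical copies were counted is not stated. With the ribosomal protein genes taken out of the table before scaling, 16 of the 32 genes were still higher and 1 lower, and all 16 were the same genes.

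**Figure D5:**
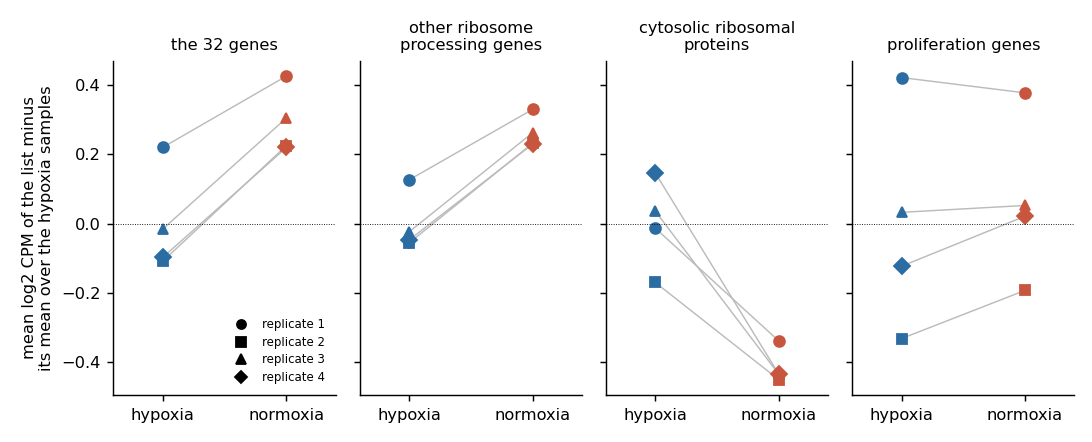
Mean log2 CPM of a gene list in each sample, minus the list's mean over the hypoxia samples (vertical axis), for the 32 genes, 134 other ribosome processing genes, 76 cytosolic ribosomal protein genes and 14 proliferation genes, with lines joining samples of the same number. The first 2 lists are higher in normoxia in every pair (0.21 to 0.33 for the 32 genes), the ribosomal protein genes are lower in every pair, and proliferation genes differ more between numbers than between oxygen levels.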

How the data were processed

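RNA-seq libraries of 4 hypoxia-cultured and 4 normoxia-cultured MSC samples were analysed from the table of raw counts per gene that the authors deposited. The deposited counts are whole numbers and not normalized. Per the submitters' processing notes and the study's methods, the authors used zUMIs 2.2.1, STAR 2.6.1a, samtools 1.9 and featureCounts of Rsubread 1.32.4 on mm10 with Ensembl annotation GRCm38.91. Strand, intron and multi-mapping settings are not given in the sources used here. The RNA-seq methods do not name a normalization, so TMM factors were used.

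Symbols and gene positions came from GENCODE M21 on the same assembly, counted from 1. Genes were kept by filterByExpr (minimum count 5) in edgeR 4.0.16. Log2 CPM with a prior count of 3 were compared with limma-trend in limma 3.58.1 under R 4.3.3, with group as the only term over all 8 samples, Benjamini-Hochberg adjustment over all 14369 tested genes and a threshold of 0.05. This prior understates changes of genes with few counts. CPM printed per sample are TMM-scaled. Alternatives were the edgeR quasi-likelihood test, DESeq2 1.42.0, limma-voom, other scalings, filters and prior counts, a replicate block, a correction by natural splines with 5 degrees of freedom for length and GC content of the longest transcript, and leaving out samples. The scripts were tested on simulated data.

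Deviations from the group means went together for samples of a number (correlations across genes of 0.47, 0.28, 0.25 and 0.17 for numbers 1 to 4), and the study describes dividing a sorted population between oxygen levels. The numbers were therefore taken as pairs in the pair differences and the blocked fits, whereas the main fit, with group as the only term, does not use them. The study calls the samples biological replicates. Where they share a source, p-values cover only the spread between these samples.

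At these depths 3 counts are 0.119 to 0.233 CPM, counting error only. The 32 genes, the wider lists and the checks were chosen with earlier results of these data known. All 32 are named. Values in every sample are given for Myc, for the 4 largest rises and 4 largest falls that passed (1 fall passed) and for the gene of highest level per length in each role class, and of each wider or check list up to 3 rises and 3 falls that passed with a mean log2 CPM of at least 3. Wdr43, Ncl, Max, Mycn and further genes with values were chosen after their values were seen. Riok2, protein composition and the promoters of Myc, Npm1, Fbl, Rrs1, Bop1 and Rrp12 were not analysed here. Wdr74 and Exosc6 had 0 counts.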

Additional observations from a re-analysis of the deposited data

Results flagged for a closer look

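Among 66 sets of 4 values examined (each of the 32 genes in each group, and the total counts), 4 held a sample whose gap to the others exceeded the 95% critical value of Dixon's test, where chance gives about 1 in 20 sets, or 3.3 here. Nop58 stood at 5.64 log2 CPM in hypoxia 1, against 5.28 to 5.34 in the other hypoxia samples. Nip7 stood at 3.98 log2 CPM in hypoxia 2, against 4.35 to 4.39 in the others. Lyar stood at 3.67 log2 CPM in normoxia 2, against 3.92 to 3.94 in the others. The total count of hypoxia 1 was 25132141, against 12929564 to 13219647.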

How the results depend on the processing

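Over the 32 genes and 23 alternatives, 688 of 736 log2 changes kept their sign and their side of the threshold, 4 lost the call, 22 gained one and 22 turned sign. The count of genes higher in normoxia was 15 to 19 when each sample was left out in turn (background 13.8% to 19.5%), with 1 lower in each case. It was 16 or 17 under the other tests, scalings and filters (background 9.30% to 25.1%). Of the 16 rises, all were kept under every alternative except the GC and length correction (13 kept) and leaving out normoxia 1 (15 kept, without Utp20). The replicate block added Rrp9, Rrp12, Bop1 and Wdr12 and changed no other call among the 32 genes. An alternative without ribosomal protein genes was chosen after seeing the data and changed no call.

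Signs turned for 5 genes near 0. Nhp2 was -0.0085 with the edgeR test, -0.017 with DESeq2, -0.016 with limma-voom, -0.0014 with DESeq2 size factors, -0.020 with upper-quartile factors, and -0.075 to 0.098 over the fits that leave out 1 sample. Fbl was -0.0072 with DESeq2, -0.0100 with upper-quartile factors, and -0.096 to 0.092 with 1 sample left out. Ubtf was 0.073 with library size alone, 0.061 with the GC and length correction, with or without the block, 0.026 without both samples numbered 1, and -0.056 to 0.0084 with 1 sample left out. With library size alone Polr1a was 0.027 and Npm1 0.072, and Npm1 was -0.077 to 0.011 with 1 sample left out. The cause was not tested.

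Library size alone shifted the median of all genes from 0.0049 to 0.089 and gave 3611 higher and 1575 lower genes (69.6% of calls higher, against 52.2%). It left 0 lower among the 11 other RNA polymerase I, 53 small subunit and 47 large subunit genes. In the Myc network it left 3 of 11 higher (background 25.1%). Of the 11 other RNA polymerase I genes, 2 were lower with DESeq2 size factors, upper-quartile factors, a minimum count of 10 or the replicate block. In those fits 2361 to 3268 of all tested genes were lower. With the GC and length correction 0 of the 11 were lower (background 14.5%). That correction gave 2 of the 32 genes lower (background 14.5%), and 2 with the block as well (background 21.5%). It gave 4 of 10 other snoRNP genes higher (also with the block) and 0 lower. In the Myc network it gave 2 of 11 higher (3 with the block). The background of higher genes was 15.5%, and 21.8% with the block. Leaving out 1 sample gave 3 to 6 higher and 0 to 2 lower of 11 other RNA polymerase I genes, and 1 to 2 higher of 10 other snoRNP genes. It gave 17 to 29 higher of 53 other small subunit genes and 1 to 3 lower of 47 other large subunit genes. In those fits 13.8% to 19.5% of all tested genes were higher, and 1819 to 2570 genes were lower. Promoter windows of 250 bases moved the share with CACGTG to 3.85%. The lowest count of the 32 genes in any sample was 140, for Polr1b.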

Other observations

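Many snoRNAs are made from introns of host genes. Of the 32 genes, 6 hold annotated snoRNA genes on their own strand (Nop56, Nop58, Dkc1, Wdr43, Gnl3 and Ncl), a grouping chosen after the values were seen. All 6 were higher in normoxia by limma-trend (background 18.0%), with a median log2 change of 0.61. Of the other 26 genes, 10 were higher (38.5%) and 1 lower (3.85%, background 16.5%), with a median of 0.22. With the GC and length correction, 4 of the 6 were higher (background 15.5%), with a median of 0.45. Of the 26, 12 were then higher and 2 lower (background 14.5%), with a median of 0.27. Transcripts of the 6 had a median GC content of 44.0%, against 51.4% for the 26. Among all 216 tested protein-coding hosts, 52 were higher (24.1%) and 55 lower (25.5%), and among the 206 hosts outside these lists 43 were higher (20.9%) and 54 lower, against 19.6% higher and 17.2% lower of all tested protein-coding genes. The snoRNAs inside the 6 genes had 0 to 5 counts each over all samples, so their own levels could not be compared.

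Of the 26 promoter windows, CACGTG occurred in 4 of 15 genes called higher and in 0 of 11 others (1 of 15 and 0 of 11 with the 250 bases before the start alone), while CACGCG occurred in 4 of 15 and 6 of 11, and CGGAAG in 6 of 15 and 7 of 11. Across tested genes with a window, 20.9% of the 1220 with CACGTG and 19.1% of the 9269 without it were higher in normoxia. CGGAAG occurred in 81 of 118 windows of the wider processing genes (68.6%, against 34.2% of tested genes). Of 8 MSC markers, 2 were higher in normoxia by limma-trend (25%, background 18.0%), Cd44 (0.72) and Nt5e (0.59). Eng (-0.27) was the 1 lower (12.5%, background 16.5%), and it did not pass with the GC and length correction. With the replicate block 3 of the 8 were higher (background 23.3%) and 5 lower (background 22.7%).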
